A study of Rattus norvegicus with 8 samples.

Results

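The 45 genes described here encode the working parts of the lysosome that were measured in the distal colon mucosa of rats fed quercetin or a control diet. They were the members of a list of 46 genes for lysosomal hydrolases, membrane proteins, the proton pump and the receptors that sort enzymes to the lysosome. A gene was taken where a probe set carried its symbol alone in the platform annotation, and the brightest probe set by mean log2 signal over all 8 arrays stood for it. Only Sgsh, a heparan sulfate sulfatase, had no such probe set and is not analysed here. The other 45, of 14217 genes with a symbol on the array, all lay within the upper 60% of probe sets by mean signal that were tested. In all, 10266 genes were tested, and the 45 had 63 probe sets between them.

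Rats received quercetin at 10 g per kg of diet, or the control diet, an RM3 [E] FG SQC rat breeder diet, for 11 weeks. Quercetin is a plant flavonol. RNA came from mucosal scrapings, which hold epithelium together with the cells of the tissue under it, and was read on 4 quercetin and 4 control arrays. Strain, sex and age are not given in the labels, and it is not stated whether every array came from its own animal, so errors and p-values describe the spread between these samples, which may be technical. Signals are linear MAS5 intensities, scaled per array. In such whole scrapings, fewer cells of a type and less RNA per cell cannot be told apart.

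Lysosomes are acidic compartments in which proteins, sugar chains and lipids are broken down. Most of their soluble enzymes are tagged with mannose 6-phosphate in the Golgi, bound there by the receptors encoded by M6pr and Igf2r, and released in acidic endosomes. The V-type proton pump makes the acid, heavily glycosylated membrane proteins such as those of Lamp1 and Lamp2 line the compartment, and the transcription factor TFEB switches on many lysosomal genes. Colonocytes, goblet cells and macrophages of the mucosa all carry lysosomes.

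The list was drawn up with results of this comparison known, so the differences between the diets are given as a description and support nothing by themselves. M6pr, Neu1 and Igf2r had higher signals on each quercetin array than on any control array. No member had lower signals on each quercetin array than on any control array. Among all genes tested, 3.77% lay wholly higher and 2.07% wholly lower, and nothing is read from the counts of 3 and 0, since the list was chosen with this contrast known. None of the 45 passed an adjusted p of 0.05 in the limma fit over all probe sets, where 0.00974% of genes and 0.0107% of probe sets did, and the lowest adjusted p was 0.16, for M6pr. At an unadjusted p under 0.05 there were 5 members, all higher in quercetin, where 6.06% of genes were: M6pr, Igf2r, Neu1, Ctsz and Atp6ap1.

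In all, 35 of the 45 had a positive log2 fold change of quercetin over control, where 55.9% of genes tested did. Their median was 0.14, against 0.04 for all genes tested. The count was set in part by single arrays. Without control array 2 it was 28 of 45, or 62.2%, against 55.9% of all genes, and without control array 3 it was also 28. The median was then 0.12 and 0.10. With control arrays 1 and 4 left out in turn, the count was 35 and 34. With quercetin arrays 1 to 4 left out in turn, it was 32, 33, 31 and 31. Log2 fold changes ran from -0.30 for Gla to 0.75 for Neu1.

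**Figure D1:**
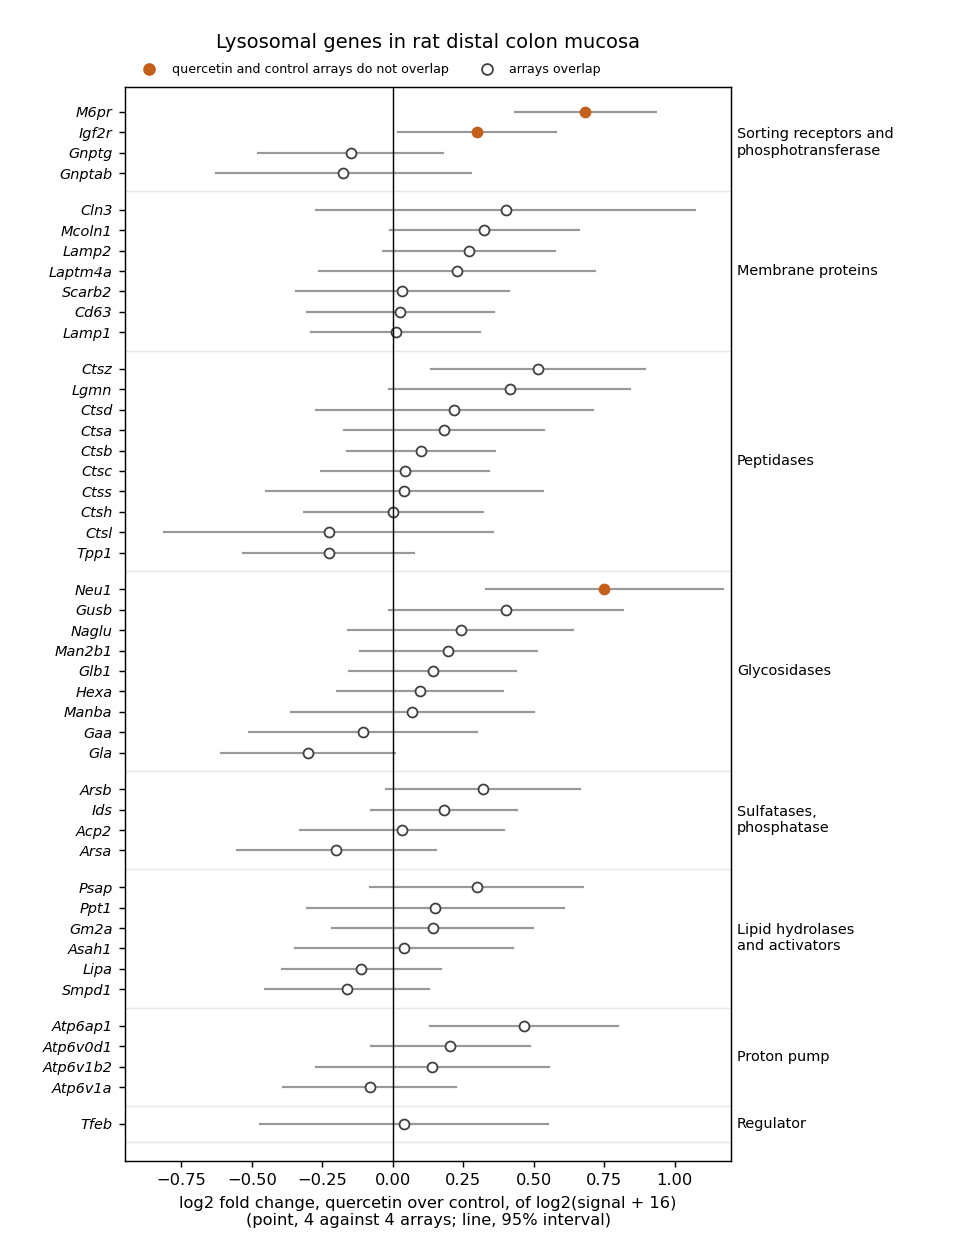
Log2 fold change of quercetin over control for the 45 lysosomal genes, grouped by role, on the log2(signal + 16) scale. Points are differences between the means of 4 and 4 arrays, lines are 95% intervals, and filled points mark M6pr, Igf2r and Neu1, whose quercetin arrays all lay above the control arrays.

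The genes of the mannose 6-phosphate route did not share a direction. M6pr encodes the cation-dependent receptor, the smaller of the receptors for the tag. Its signal was 1299.9, 1245, 1149 and 1226 on the quercetin arrays, against 742, 750.0, 784 and 765 on the control arrays. The groups were well apart, with a gap between the lowest quercetin and the highest control array wider than the range inside either. Means were 1230.1 ± 62.4 in quercetin and 760.1 ± 18.6 in control (SD, n = 4 each), a log2 fold change of 0.68 (SE 0.116, 95% interval 0.43 to 0.93) or 1.604-fold. Its SD on the log2 scale was 0.07 among quercetin and 0.03 among control arrays, where the medians over the 45 genes were 0.19 and 0.21. Over 19 alternatives, the log2 fold change of M6pr stayed between 0.65 and 0.71.

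Igf2r encodes the large cation-independent receptor, which also takes up and clears insulin-like growth factor 2. Its signal was 592, 593, 536 and 651 on the quercetin arrays, against 467, 508, 494 and 444 on the control arrays. All quercetin arrays were higher, though the gap between the groups was narrow. The log2 fold change was 0.30 (SE 0.13), and its other probe set had 0.18 (SE 0.159) with overlapping groups.

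Gnptab and Gnptg encode subunits of the phosphotransferase that adds the tag. Gnptab had signals of 384, 367, 411 and 273 in quercetin, against 269, 562, 431 and 401 in control. All quercetin arrays lay within the control range, and control arrays 2 and 3 lay above every quercetin array. The log2 fold change of -0.18 (SE 0.209) became -0.02 without control array 2, where its signal was highest. Gnptg had signals of 297, 318, 352 and 285 in quercetin, against 363, 316, 415 and 307 in control. These also overlapped, with a log2 fold change of -0.15 (SE 0.152), or -0.07 without control array 3. The receptors thus had positive values and the tagging enzyme's subunits negative ones, and those of the subunits lay within their error.

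**Figure D2:**
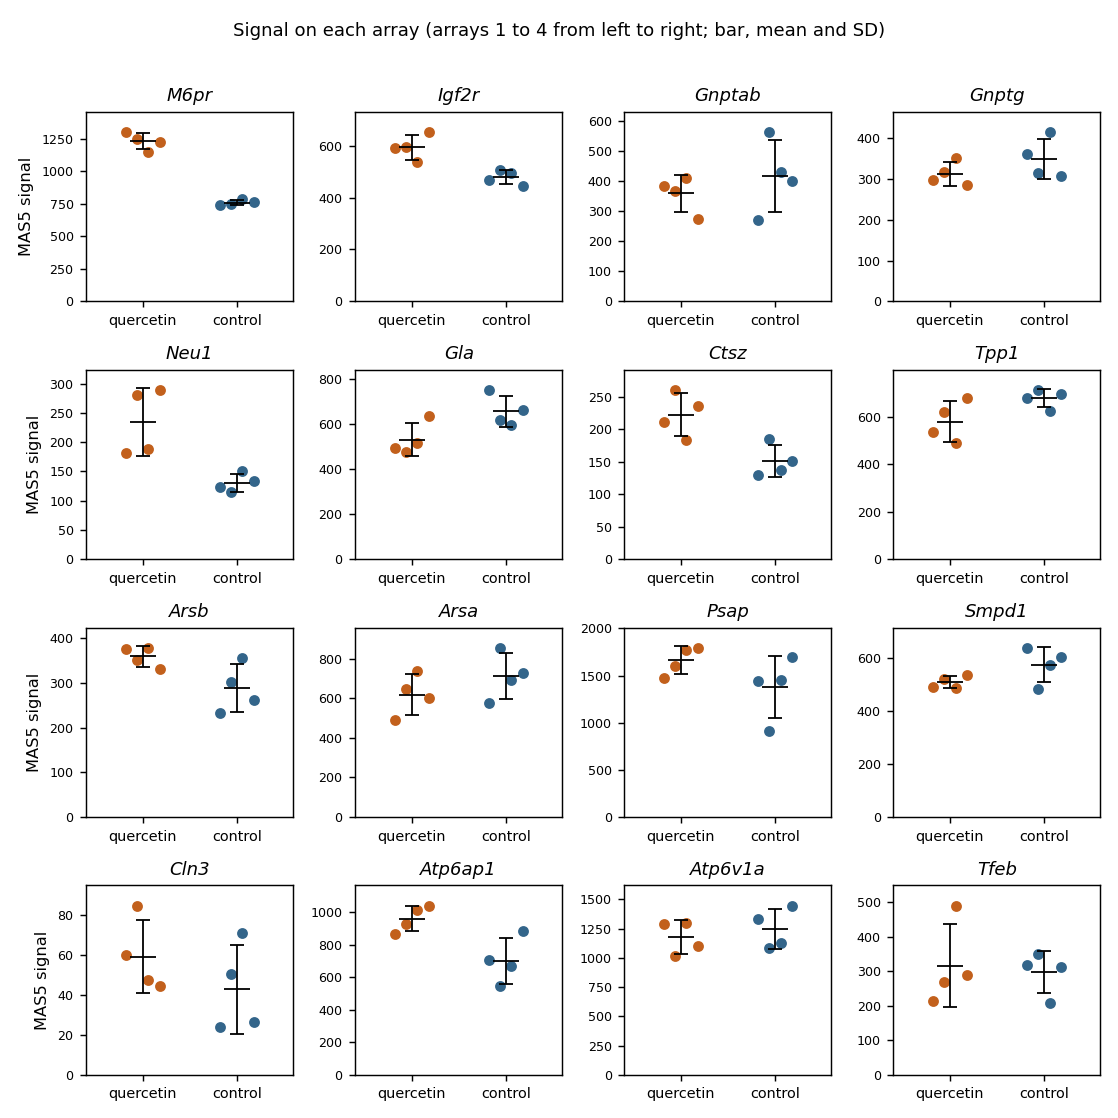
MAS5 signal (linear scale from 0) on each array for 16 lysosomal genes, quercetin arrays left and control arrays right, with mean and SD of 4 arrays. M6pr, Igf2r and Neu1 separate without overlap, while Gnptab, Tfeb and Cln3 spread widely inside both groups.

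Among the glycosidases, which trim sugar chains, 7 of 9 had positive values, with a median log2 fold change of 0.14. Neu1, the sialidase that removes terminal sialic acids from glycoproteins, had the highest value of all 45 genes. Its signal was 181, 281, 189 and 289 on the quercetin arrays, against 123, 115, 151 and 134 on the control arrays. The quercetin arrays fell into a lower and a higher pair, both above all controls. The means were 235 ± 58.0 in quercetin and 131 ± 15.7 in control (SD, n = 4 each), and the log2 fold change was 0.75 (SE 0.194). Another Neu1 probe set gave 0.22 (SE 0.25) with overlapping groups, the same sign at a smaller size.

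Gla, the alpha-galactosidase that is deficient in Fabry disease, had the lowest value of all. Its signal was 495, 475, 514 and 636 in quercetin, against 749.9, 617, 594 and 662 in control, so that quercetin array 4 alone reached into the control range. The log2 fold change was -0.30 (SE 0.143), but another Gla probe set gave 0.20 (SE 0.164), and no direction can be given for this gene. The other glycosidases lay between, with values of -0.11 for Gaa, the glycogen-digesting glucosidase, to 0.40 for Gusb, the beta-glucuronidase; these genes were chosen after their values were seen.

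Of the 10 peptidases 8 had positive values, with a median of 0.07. Without control array 2 these were 5 of 10 and 0.02. Ctsz, cathepsin Z, a carboxypeptidase, had signals of 211, 260.4, 183 and 235 on the quercetin arrays, against 129, 185, 138 and 152 on the control arrays. Control array 2 lay just above the lowest quercetin array, and the rest were apart. Its log2 fold change was 0.52 (SE 0.176), and 0.61 without control array 2.

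Tpp1, a tripeptidyl peptidase that is lost in a form of neuronal ceroid lipofuscinosis, had the lowest value among the peptidases, level with Ctsl. Its signal was 535, 620.2, 489 and 679 in quercetin, against 678, 713, 625 and 696 in control. The ranges overlapped in quercetin array 4, and the log2 fold change was -0.23 (SE 0.140), or -0.15 without quercetin array 3. Of the other cathepsins, chosen here after their values were seen, cathepsin B (Ctsb) had 0.10 and cathepsin H (Ctsh) 0.00. Cathepsin D (Ctsd) had 0.22 with all arrays and -0.01 without control array 2. Cathepsin S (Ctss), which cuts the class II invariant chain in antigen-presenting cells, had 0.04 with all arrays and -0.20 without control array 2. For cathepsin L (Ctsl) the values were -0.23 and -0.38.

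All 7 membrane proteins had positive values with all arrays, and 5 of 7 without control array 2, when Cd63 and Laptm4a turned negative. Cln3, a membrane protein lost in juvenile neuronal ceroid lipofuscinosis, had the highest value of the group. Its signal was dim, at 60.1, 84.9, 47.7 and 44.6 in quercetin, against 23.9, 50.5, 71.2 and 26.4 in control. The ranges overlapped widely, and the log2 fold change was 0.40 (SE 0.311), or 0.22 with a pseudocount of 64 and 0.24 to 0.61 with single arrays left out. Other Cln3 probe sets had 0.72 (SE 0.402) and 0.89 (SE 0.356), also with overlapping groups.

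Lamp1, an abundant lining protein, had the lowest value of the group, 0.01 (SE 0.139). Its signal was 2034, 2876, 2651 and 2449 in quercetin, against 2466, 2729, 2118 and 2588 in control, and the groups overlapped. The remaining membrane proteins were chosen after their values were seen. Lamp2, a lining protein that also serves in autophagy, had 0.27 (SE 0.141) on its brightest and 0.37 on its other probe set. Mcoln1, the calcium channel mucolipin 1, had 0.32 (SE 0.155), with quercetin signals of 283, 388, 399 and 394 against control signals of 259.6, 284, 306 and 297. Only quercetin array 1 fell within the control range. Scarb2, the carrier of beta-glucocerebrosidase, had 0.03, and the tetraspanin Cd63 0.03.

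Of 4 measured sulfatases and phosphatases, 3 had positive values, with a median of 0.11. Arsb, which removes sulfate from dermatan sulfate, had signals of 377, 352, 379 and 331 in quercetin, against 232, 302, 357 and 261 in control. Control array 3 reached into the quercetin range, and the log2 fold change was 0.32 (SE 0.159), with 0.15 on its other probe set. Arsa, the sulfatase of sulfatide, had 489, 645, 737 and 601 in quercetin, against 574, 855, 692 and 728 in control. Its ranges overlapped, with a log2 fold change of -0.20 (SE 0.163), or -0.10 without quercetin array 1 and -0.11 without control array 2.

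The lipid hydrolases and their activators had 4 of 6 positive values and a median of 0.09. Psap, the precursor of the saposins that help enzymes reach sphingolipids, had signals of 1479.6, 1600.3, 1772 and 1794 in quercetin, against 1439.6, 917, 1458 and 1698 in control. Control array 2 stood far below the other arrays here, and the log2 fold change of 0.30 (SE 0.174) was 0.12 without it. Smpd1, acid sphingomyelinase, had 489, 521, 486 and 535 in quercetin, against 637, 482, 571 and 603 in control. Again control array 2 was the exception: the log2 fold change was -0.16 (SE 0.135) with it and -0.24 without it, when the groups no longer overlapped.

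The proton pump had 3 of 4 positive values, and 2 of 4 without control array 2. Atp6ap1, an accessory subunit, had signals of 868, 925, 1012 and 1041 in quercetin, against 706, 543, 669 and 883 in control. Only control array 4 reached into the quercetin range, and the log2 fold change was 0.47 (SE 0.155), or 0.35 without control array 2. Atp6v1a, the catalytic subunit, had 1292, 1015, 1301 and 1098 in quercetin, against 1335, 1083, 1127 and 1446 in control. These did not separate, at -0.08 (SE 0.142), or -0.15 to -0.01 with single arrays left out. Tfeb itself had 214, 269, 489.6 and 289.7 in quercetin, against 319, 351, 208 and 312 in control. The Tfeb groups overlapped, with quercetin array 3 highest, the log2 fold change was 0.04 (SE 0.236), and its sign turned without quercetin array 3 and without control array 3.

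A gene's probe sets mostly shared a sign. Of 15 further probe sets of the 45 genes that were tested, 13 had the sign of the brightest one. The exceptions were Gla and a Lamp1 probe set with -0.13 (SE 0.303).

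Control array 2 bore on many of these genes, and was not the only array to do so. It gave the lowest signal of the 8 arrays for 14 of 45 genes (31.1%), against 19.5% of all probe sets, and control array 1 gave the lowest for 12 (26.7%), against 19.8%. Each quercetin array was the lowest for 3. Control array 2 was also the highest of the 8 for 7 genes (15.6%), against 23.8% of all probe sets. Among the control arrays alone it was the lowest for 16 genes and the highest for 16. Control array 2 also had the highest ratio of 3' to 5' GAPDH signal, a sign of shortened or incompletely copied RNA. It was 3.79, against 1.91 to 2.36 on the quercetin arrays and 1.58 to 2.15 on the other control arrays. The beta-actin ratio was also highest there, at 21.4 against 6.79 to 12.4 on the rest. By the hexokinase ratio, control array 2 had 2.76, and quercetin array 4 was highest, at 6.05 against 1.62 to 3.27 on the rest. The mean correlation of control array 2 with the other arrays was 0.927, against 0.941 to 0.955 for the rest. Without control array 3 the number of positive values was also 28 of 45. The median of the 45 genes, after subtracting each gene's mean, was lowest on control array 3, at -0.11 against -0.08 on control array 2. The GAPDH ratio of control array 3 was 2.08. The part of RNA quality in the count was not tested. With the GAPDH ratio as a covariate, 32 of the 45 genes had positive values, with a median of 0.12, and M6pr, Igf2r and Neu1 had 0.68, 0.30 and 0.74.

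**Figure D3:**
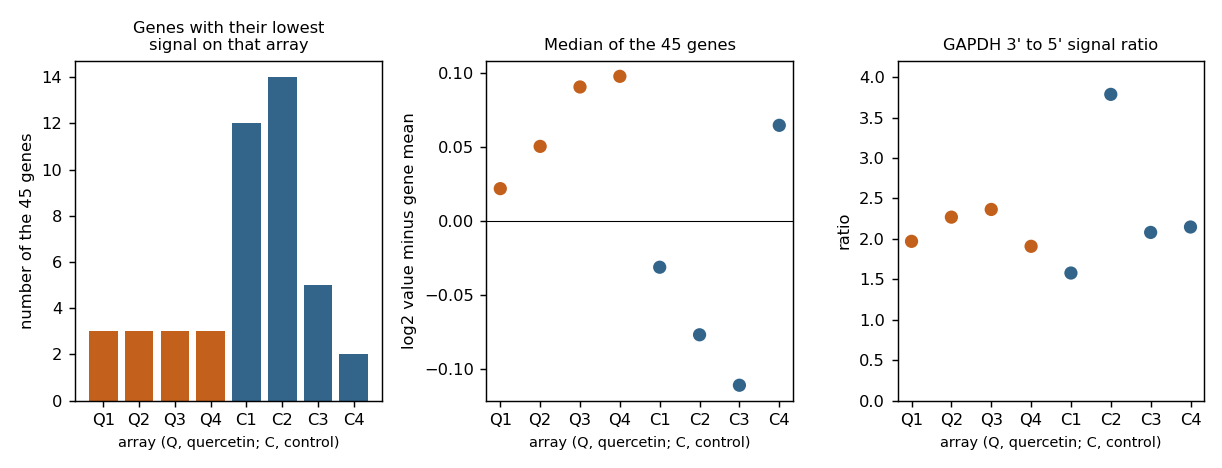
For each array, the number of the 45 genes with their lowest signal there, the median of the 45 genes' log2 values after subtracting each gene's mean, and the GAPDH 3' to 5' signal ratio. Control arrays 1 and 2 hold the most lowest values, and the medians run from 0.02 to 0.10 on quercetin arrays and from -0.11 to 0.06 on control arrays.

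Without control array 2, 7 of the 45 genes changed sign, all turning negative: Cd63, Laptm4a, Ctsd, Ctsh, Ctss, Manba and Atp6v1b2. Laptm4a, an endosomal membrane protein chosen as an example after its values were seen, had signals of 1339 to 1616 in quercetin, against 1824, 712, 1269 and 1441 on control arrays 1 to 4. Its log2 fold change was 0.23 with all arrays and -0.04 without control array 2. M6pr, Igf2r and Neu1 kept values of 0.68, 0.33 and 0.70.

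**Figure D4:**
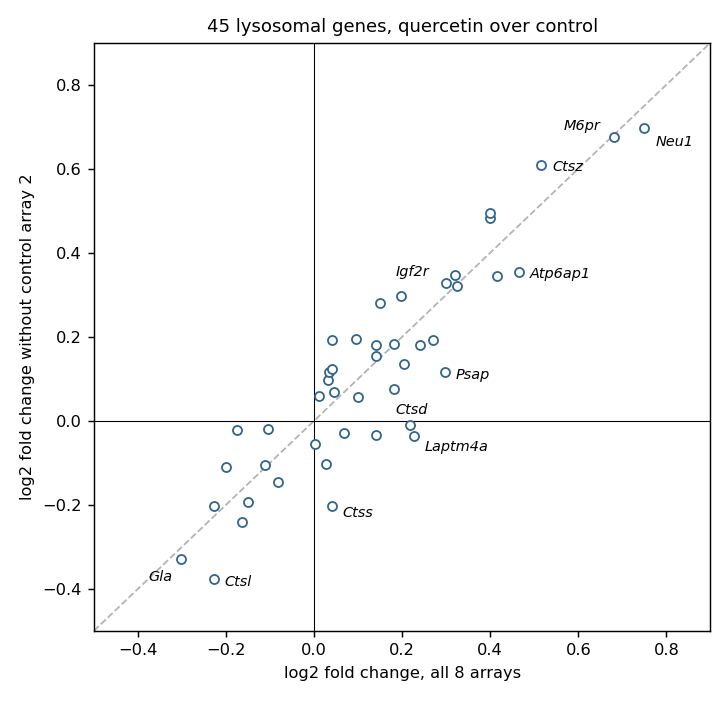
Log2 fold changes of the 45 genes with all 8 arrays (horizontal axis) and without control array 2 (vertical axis); the dashed line marks equal values. M6pr, Neu1 and Ctsz stay near the line, while Ctsd, Laptm4a and Ctss drop below 0.

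Markers of the cells in the scrapings were set beside these values. The epithelial list, with 13 of 14 genes measured, had 8 positive and 5 negative values, with a median of 0.09. They ran from -0.21 for Epcam to 0.33 for Cdx1. The list held strong signals, such as 14685 to 18771 for Epcam (chosen after its values were seen) in quercetin and 17731 to 21395 in control. The level of the list, relative to the mean of the 8 arrays, was -0.03 to 0.07 on the quercetin arrays. It was -0.19 to 0.15 on the control arrays. Macrophages and dendritic cells are rich in lysosomes. Of their 19 listed markers 10 were measured, 7 with positive values, and the list level was -0.07 to 0.17 on quercetin arrays and -0.14 to -0.02 on control arrays. Among these, chosen after their values were seen, log2 fold changes ran from -0.39 for Aif1 to 0.67 for Csf1r, with -0.21 for Fcgr3a and 0.00 for Mrc1. Those genes were dim, with median signals of 37.5 to 52.6 in quercetin and 30.3 to 51.4 in control. Lyz2, lysozyme, had 0.57, with a signal of 162 to 299 in quercetin and 117 to 164 in control. Cd14, the brightest, had 0.02, with a signal of 1906 to 2382 in quercetin and 1121 to 3323 in control. Cd163, C1qb, C1qc, Adgre1, Itgam and Itgax, which define these cells, were too dim to be tested, though none was listed at 0. Of these, C1qc lay wholly higher, at 32.4 to 59.9 in quercetin and 1.504 to 31.2 in control, and Itgax wholly lower, at 1.47 to 7.10 in quercetin and 9.96 to 25.6 in control. The level of a list is the mean over its measured genes, so a single gene can move it. The mast cell and granulocyte list, with 3 measured genes, had a level of -0.16 to 0.60 on quercetin arrays and -0.66 to 0.15 on control arrays. Its log2 fold changes were 0.20 for Cpa3, 0.31 for S100a9 and 1.02 for Mcpt1. The goblet cell list, with 8, had -0.10 to 0.22 on quercetin arrays and -0.31 to 0.14 on control arrays. Of its genes 5 were positive and 3 negative, from -0.21 for Muc2 to 1.37 for Spink4, with a median of 0.09. The part of such cells in the lysosomal values was not tested.

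Other genes of lysosomal biology, 121 measured of 146 listed, had 60 positive and 61 negative values, with a median of 0.00. Of the 121, 41 were trafficking genes and 21 were regulators or autophagy genes. The rest were listed as hydrolases, membrane proteins and proton pump genes. Without control array 2, 52 of the 121 were positive. No test set these against the 45 genes, whose choice used this contrast. None passed an adjusted p of 0.05; 10 had an unadjusted p under 0.05, where 9.39% of all genes did, 4 of them positive. The quercetin arrays lay wholly above the control arrays for 2 genes and wholly below for 3, where 3.77% and 2.07% of all genes tested did. Plbd2, a phospholipase B-like protein, had 222, 232, 291 and 258 in quercetin, against 147, 189, 193 and 219.8 in control. Its log2 fold change was 0.40 (SE 0.169). Lamtor2, which helps anchor nutrient-sensing complexes to the lysosome, had 1495, 1463, 1410.4 and 1548 in quercetin, against 1322, 1186, 1329.8 and 1295 in control. These lay close together, with a log2 fold change of 0.20 (SE 0.114).

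On the lower side, Atp6v1d, a stalk subunit of the proton pump, had signals of 1759.7, 1276, 1715 and 1499.7 in quercetin, against 2811, 1864, 1881 and 1942 in control. All quercetin arrays were lower, with a log2 fold change of -0.43 (SE 0.161). This stands opposite to Atp6ap1 of the same pump. Of 13 measured pump genes outside the list, 9 had negative values, Atp6v1d included. The other 4 (30.8%) were positive, where 55.9% of all genes tested were. The median of the 13 was -0.09, and for all but Atp6v1d the quercetin and control arrays overlapped. Scpep1, a serine carboxypeptidase, had signals of 1216, 1487, 1129 and 1398 in quercetin, against 1826, 1573, 1599 and 1877 in control. All its quercetin arrays were lower, with a log2 fold change of -0.39 (SE 0.132). Ostm1, partner of the lysosomal chloride exchanger, had 432, 516, 472 and 458.2 in quercetin, against 547, 691, 616 and 541 in control. Here too all quercetin arrays were lower, with -0.34 (SE 0.137). Among adaptor and trafficking genes the smallest p was that of Ap1s2, a subunit of the AP-1 adaptor, at -0.58 (SE 0.267). Its signals were dim, at 38.6, 52.7, 42.1 and 25.8 in quercetin, against 59.1, 97.2, 49.7 and 65.3 in control, and overlapped in control array 3 and quercetin array 2.

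A minority of the promoters held an E-box motif. The list is of known lysosomal genes, and TFEB switches on many such genes, so the motif shares are only a description. TFEB and its relatives bind a form of the E-box, CACGTG, with flanking bases GT before it (GTCACGTG, an 8-base form) and AC after it (a 10-base form). These motifs were searched on both strands in RefSeq promoter windows (build GRCr8) of 250 bases before and 50 after an annotated start; the 6-base and 10-base forms are their own reverse complements, and each longer form contains the shorter. A window was found for 36 of the 45 genes, not for M6pr, Ctsb, Hexa, Arsa, Arsb, Asah1, Psap, Ppt1 and Atp6v1b2. CACGTG occurred in 10 of the 36 (27.8%), against 6.42% of all 33469 windows and 10.1% of the 8600 genes tested that had one. GTCACGTG occurred in 9 of 36 (25.0%), against 1.85% of all windows and 4.09% of genes tested. Among 103 other genes of lysosomal biology GTCACGTG was found in 13 (12.6%). That set includes trafficking and autophagy genes, so it is not a like set of lysosomal enzymes and membrane proteins.

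**Figure D5:**
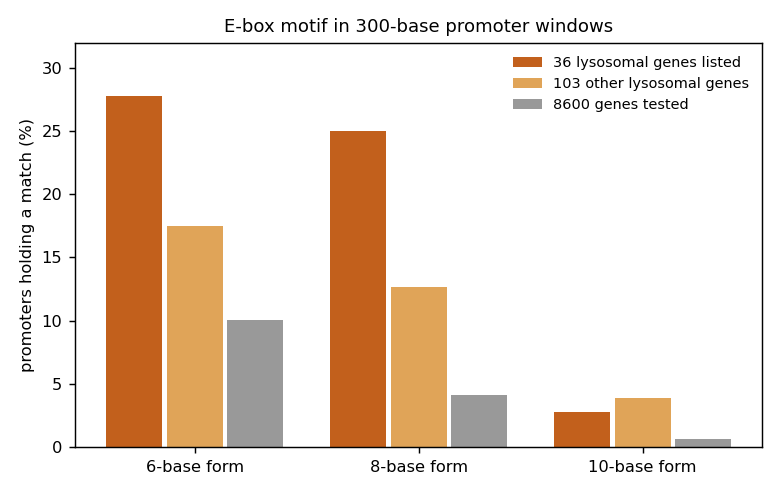
Share of genes whose promoter window holds the 6-base, 8-base or 10-base form of the E-box. Bars are for the 36 listed lysosomal genes, 103 other genes of lysosomal biology and the 8600 genes tested. The 103, labelled other lysosomal genes, include trafficking and autophagy genes. The 8-base form stands at 25.0%, 12.6% and 4.09%.

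The 10-base form was present in the window of only 1 of the 36 genes (2.78%), Igf2r. It was in 4 of the 103 other genes of lysosomal biology (3.88%), in 0.233% of all windows and in 0.616% of genes tested. In the Igf2r window it occurs in 2 copies. The stretch that holds both is shown because Igf2r is also among the 3 genes whose arrays did not overlap on the brightest probe set. Of these, Neu1 holds no match and M6pr has no window, and a link between motif and diet was not tested. The stretch lies at chr1:50526731-50526820 (GRCr8, plus strand), upstream of the start, with the motif in capitals.
Igf2r: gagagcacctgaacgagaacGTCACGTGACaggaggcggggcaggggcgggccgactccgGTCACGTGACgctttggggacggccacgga

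The 8-base form is shown for the other 8 genes that hold it, which are sorting, membrane, peptidase, glycosidase and proton pump genes, so that the shared core and the differing flanks can be compared. Each line is a 30-base window, read 5′ to 3′ along the gene's strand, with the match in capitals; CACGTGAC is GTCACGTG read on the other strand. The windows lie at chr10:14761597-14761626 (minus strand) for Gnptg, at chr16:83075111-83075140 (minus) for Lamp1, at chr1:190597950-190597979 (minus) for Cln3, at chr12:6358224-6358253 (plus) for Mcoln1, at chr1:206968814-206968843 (minus) for Ctsd, at chr10:105028276-105028305 (plus) for Gaa, at chr8:122963606-122963635 (plus) for Glb1 and at chr19:50357283-50357312 (minus) for Atp6v0d1.
Gnptg: cctgctgtcgctCACGTGACcgtgcgaccc
Lamp1: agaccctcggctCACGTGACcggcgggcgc
Cln3: cacgggtactGTCACGTGatccccaacctg
Mcoln1: cgtcaagcttGTCACGTGttcgacccaggc
Ctsd: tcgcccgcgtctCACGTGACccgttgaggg
Gaa: ccgcccacaaacCACGTGACccacgctgcc
Glb1: cggctccggaGTCACGTGgcctgcagaggc
Atp6v0d1: ccccattgtgGTCACGTGagatgcagtgcg

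Genes with and without the 8-base form covered overlapping ranges of difference between the diets. The 9 genes with GTCACGTG had a median log2 fold change of 0.20, from -0.15 for Gnptg to 0.40 for Cln3, and 7 were positive. The 27 without it had a median of 0.04, from -0.30 for Gla to 0.75 for Neu1, and 20 were positive. Neu1, with the highest value, has none of these letters in its window, which says nothing of what binds there. Lamp1 holds the 8-base form at 4 places and had a log2 fold change of 0.01.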

How the data were processed

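Groups were read from the titles of the 8 samples. The authors deposited a linear intensity for each probe set on each array. The submitters' processing notes name MAS5, and the sources used here give no further step. The mean intensity trimmed by 2% at either end was 200.07 to 200.09 on each array. The table held 31099 probe sets, and its 57 array controls were removed. Signals were analysed as log2(signal + 16), which understates changes of dim probe sets, and the upper 60% by mean over all arrays, 18625 probe sets (signal of about 29.4 or more), were fitted with limma 3.58.1 in R 4.3.3 (lmFit, eBayes with trend, two-sided, Benjamini-Hochberg, threshold 0.05). In that fit 2 probe sets passed. The number of arrays limits precision: the median SE of a log2 fold change was 0.222, with a 95% interval of 0.481 to either side. On simulated data for this comparison with 18625 probe sets, 5.6%, 44.2%, 65.2% and 80.6% of log2 changes of 0.5, 1, 1.5 and 2 were recovered.

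Gene symbols came from the platform annotation, checked against RefSeq (GRCr8), where 0 changed. Members, other lists and tests were chosen with earlier results of these data known. Values on each array are given for M6pr, Igf2r, Gnptab, Gnptg, Tfeb, every member without overlap, and the highest and lowest member of each role; of the other lysosomal lists, genes without overlap or else the smallest p. Other genes given with values were chosen after their values were seen. Alternatives left arrays out, took the GAPDH ratio as covariate, added a replicate block, dropped the trend, tested the upper 40% or every probe set, normalised by quantiles or centred on medians, changed the pseudocount to 1 or 64, or averaged all probe sets per gene. Marker lists of epithelium, macrophages and dendritic cells, goblet, smooth muscle, fibroblast, T, B and plasma, mast and granulocyte, endothelial, enteric neuron and glia, and red cells were measured too; their levels differed between the diets by -0.30 (red cells) to 0.51 (mast cells and granulocytes) on the log2 scale, and in each the range of quercetin arrays overlapped that of control arrays.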

Additional observations from a re-analysis of the deposited data

Results flagged for a closer look

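None of the 42 groups of 4 arrays examined held an array far enough from the others to pass Dixon's 95% critical value, where chance alone gives about 2.1. These groups came from 21 items and did not cover every gene or array measure. The hexokinase 3' to 5' ratio was not among them, and the lack of flags does not extend to what was left out. That ratio was 6.05 on quercetin array 4, far from the other quercetin arrays at 2.16 to 2.37.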

How the results depend on the processing

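The count of lysosomal genes past an adjusted p of 0.05 was 0 under each of 18 alternatives. The count over all probe sets, 2 with the settings used, was 1 with a pseudocount of 1, quantile normalisation, median centring, no filter, eBayes without trend and the replicate block, 3 with a pseudocount of 64, 0 without control arrays 1 and 2, and 1 to 2 when single arrays were left out. The cause was not tested. The median log2 fold change of the lysosomal genes ran from 0.10 to 0.15 over 19 alternatives, positive in each, and the number with positive values from 28 (without control array 2, and without control array 3) to 35. Scaling moved that number little, to 35 with quantile normalisation and 34 with median centring. An alternative chosen after seeing the data counted genes without overlap between the diets: 6 higher without control array 2 and 8 without control arrays 1 and 2, against 3 with all arrays, but fewer arrays separate more genes by construction (6.27% and 9.77% of all genes, against 3.77%). The sign of Tfeb turned in 2 alternatives and that of the other 15 members shown by the naming rule in none that tested them. Adjusted p-values of M6pr ran from 0.0987 to 0.594. Nothing states that the shared replicate numbers pair the arrays. Same-numbered deviations correlated at -0.15 to 0.16 and different-numbered ones at -0.20 to 0.17, which cannot exclude a pairing. The replicate block left 1 probe set and no lysosomal gene past the threshold.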
